A study of Mus musculus with 6 samples.

Results

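The mitochondrial ribosomal proteins described here are the genes that the array's own annotation names Mrpl or Mrps followed by a number. They were chosen by name alone from the probes that are not controls, and every probe of each gene was taken. This gave 77 genes, 48 of the large subunit (Mrpl) and 29 of the small subunit (Mrps), with 119 of the 56605 probes on the array. The 119 probes divide into 70 for the large and 49 for the small subunit, and the whole array carries 37074 gene names.

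The study exposed primary cultures of mouse cerebral cortex to terahertz radiation, the band between microwaves and infrared light, and measured their RNA on 1-colour Agilent arrays. All cultures came from C57/B6 embryos at embryonic day 16, were grown in Neurobasal with B27 plus, and were collected at day 12 in vitro (12 DIV). The 3 control cultures were not irradiated, and the 3 irradiated cultures received 3.1 THz for 3 h, 1 time a day, from 5 to 9 DIV. From each sample, 0.2 µg of RNA was labelled with Cy3, and the labels do not say whether samples 1 to 3 of a group came from separate dissections, so a p-value here covers only the variation among these arrays, which may be technical. No transgene or other genotype is given for either group.

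Mitochondria keep their own ribosomes, which translate the few messages of the mitochondrial genome into core subunits of the oxidative phosphorylation complexes. The ribosomal RNAs are made inside the organelle, but every protein of the small subunit, which decodes the message, and of the large subunit, which forms the peptide bond, is encoded in the nucleus and imported. Neurons depend heavily on oxidative phosphorylation, and inherited defects in several of these proteins cause multisystem disease. Gene names do not always match the assembled particle: structures place the proteins of Mrps30 and Mrps18a in the large subunit, and the protein of Mrps36 has been assigned to the 2-oxoglutarate dehydrogenase complex. Genes are counted below by name.

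The nuclear origin of these proteins makes their promoters a shared feature that the choice by name did not use. RefSeq promoter windows on build GRCm38.p6, from 250 bases before to 50 bases after the start, were matched for 68 of the 77 genes, 42 large and 26 small, and compared with 17492 protein-coding windows. Many of the matched genes, 24 of 68 (35.3%), have a neighbour that starts within 1000 bases in the opposite direction, against 8.48% of all protein-coding genes. The share was 40.5% in the large and 26.9% in the small subunit. The regions between 5 such pairs of starts are shown because they include the only pair in which both genes are mitochondrial ribosomal proteins (Mrpl46 and Mrps11), the gene with the smallest p-value (Mrpl57), and neighbours with mitochondrial roles: Twnk, the helicase of mitochondrial DNA replication, and Sars2, the mitochondrial seryl-tRNA synthetase. Each is written 5′ to 3′ on the forward strand from RefSeq, and capitals mark matches to 3 of the motifs searched: the ETS core CCGGAAG, the NRF1 core CGCATGCG and the GC box GGGCGG, on either strand. The region of Mrpl32 and Psma2 is also shown. No other region between a member and a neighbour with starts up to 250 bases apart held an NRF1 core.
Mrpl46 and Mrps11, chr7:78783090-78783130: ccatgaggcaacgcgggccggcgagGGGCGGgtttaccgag
Mrpl32 and Psma2, chr13:14613038-14613241: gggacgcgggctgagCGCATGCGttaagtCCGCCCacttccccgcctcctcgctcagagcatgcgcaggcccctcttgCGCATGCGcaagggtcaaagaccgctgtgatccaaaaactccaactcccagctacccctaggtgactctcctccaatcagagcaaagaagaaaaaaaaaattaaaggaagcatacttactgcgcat
Mrpl43 and Twnk, chr19:45006443-45006557: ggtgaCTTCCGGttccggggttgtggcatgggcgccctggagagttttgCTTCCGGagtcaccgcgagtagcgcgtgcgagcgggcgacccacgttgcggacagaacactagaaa
Mrps12 and Sars2, chr7:28741822-28741967: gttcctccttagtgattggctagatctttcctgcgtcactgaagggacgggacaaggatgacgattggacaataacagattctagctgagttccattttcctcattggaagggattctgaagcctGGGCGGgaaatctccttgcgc
Ska3 and Mrpl57, chr14:57826164-57826238: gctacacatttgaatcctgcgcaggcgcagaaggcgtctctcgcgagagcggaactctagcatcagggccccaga

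Motifs of 3 factors known to act on nuclear genes of mitochondria were found in a larger share of these promoters than of all promoters. The ETS core CCGGAAG, bound by factors such as GABPA, was in 24 of 68 windows (35.3%) against 11.9% of all. The YY1 core AAGATGGC was in 12 (17.6%) against 3.22%. The NRF1 core CGCATGCG was in 7 (10.3%) against 2.54%, with 6 of these in the large and 1 in the small subunit. The general motifs differed less or ran the other way: the GC box GGGCGG was in 34 (50%) against 46.3%, the E-box CACGTG in 5 (7.35%) against 7.9%, the CRE TGACGTCA in 2 (2.94%) against 2.34%, and the TATA box TATAAA in 4 (5.88%) against 13.3%. By subunit, the GC box was in 17 of 42 large (40.5%) and 17 of 26 small subunit windows (65.4%). Both strands were searched and a base may belong to more than 1 motif. The windows held a median of 21 CpG dinucleotides against 13 in all promoters, and a median GC content of 58.2% against 56.3%. A match describes letters in a window and is no evidence that a factor binds there, and these shares were not tested.

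**Figure D1:**
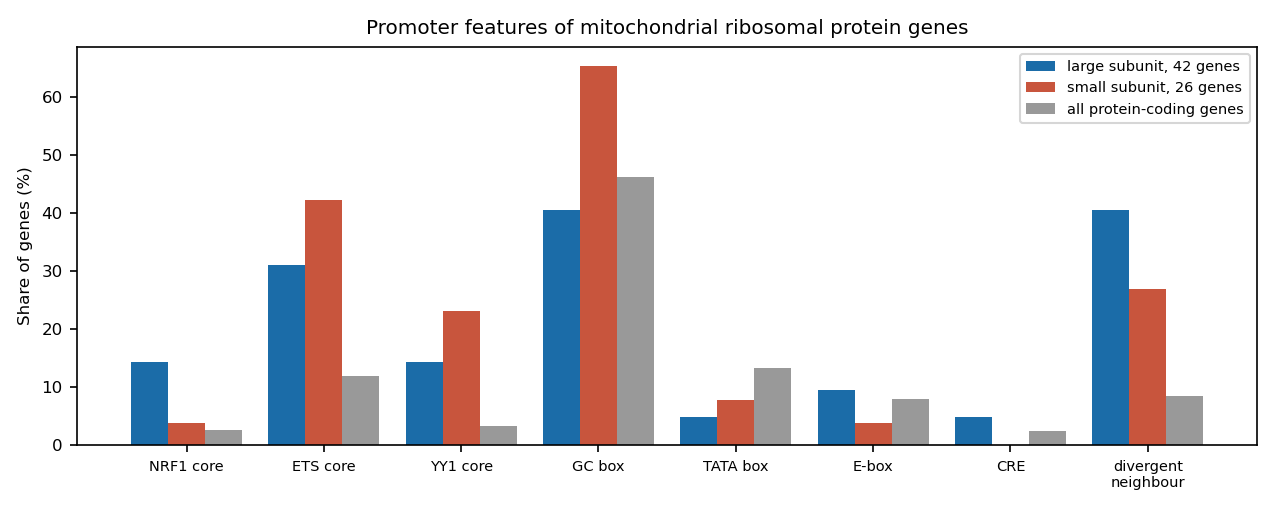
Share of genes (%, vertical axis) whose promoter window holds each motif, and share with a neighbour starting within 1000 bases in the opposite direction, for large subunit genes, small subunit genes and all protein-coding genes. The ETS core reaches 31.0% of large and 42.3% of small subunit genes against 11.9% of all genes.

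The arrays differed in overall brightness, the processed signal of all spots, in a way that overlaps with the groups. Its 75th percentile was 476, 687 and 1048 for controls 1 to 3, and for the irradiated cultures it was 1225, 1291 and 921 in the same order. Between 63.3% (control 1) and 73.5% (irradiated 1) of probes were well above background, and no spot was saturated. Control 1 stood apart: on the first principal component over all genes, which held 54.6% of the variation, it lay at -114 and the other arrays between -5.03 and 46.9. The label of a neuron culture was checked against markers. All 11 neuronal markers were measured, as were 8 of 8 for astrocytes, 9 of 9 for microglia, 6 of 6 for oligodendrocytes, 5 of 5 for their precursors and 5 of 5 for fibroblasts, but 3 of 5 for endothelial cells and 5 of 6 for dividing progenitors.

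All signals below are log2 values after subtracting the 75th percentile of that array, and a difference is irradiated minus control on that scale. Of the 119 probes, 114 were called well above background by the scanner software on 3 or more arrays and entered the fit, 67 large and 47 small, and 109 of them were so on all 6. The other 5 were well above background on no array. They are 1 probe each of Mrpl23, Mrpl47, Mrpl52, Mrps5 and Mrps18b, and each of these genes has another measured probe, so all 77 genes were measured. The probe with the highest mean signal stands for its gene. Signals of different probes cannot be read as relative amounts of RNA, so each gene is compared only with itself.

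On the 75th percentile scale, most mitochondrial ribosomal protein genes had slightly lower mean signal in the irradiated cultures, but none passed the test. None of the 114 probes passed an adjusted p of 0.05 in limma, where the smallest was 0.539, and 0% of all 40552 probes passed. At an unadjusted p under 0.05, 0 member probes were lower, where 4.09% of all probes were, and 0 were higher, where 4.65% were. The 95% interval of the difference included 0 for all 77 genes, had a median width of 0.97, and lay within ±1 for 74 of them. These are intervals for single genes, and they do not show that irradiation left the genes unaffected. In bulk RNA such as this, fewer cells of a type and less RNA per cell cannot be told apart.

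By direction, 62 of 77 genes (80.5%) were below 0 on this scale, against 62.2% of all 26157 genes. The same count in the authors' deposited log2 table, which is quantile normalised between arrays, was 42 of 77 (54.5%) against 56.6% of all genes there. The excess of genes below 0 was therefore present with one scaling and absent with the other. The median difference was -0.20 for the large subunit, with an interquartile range from -0.36 to -0.07, and -0.17 for the small subunit, with one from -0.33 to -0.06. All genes had a median of -0.10. In the deposited table, these medians were -0.04, 0.0033 and -0.05.

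The large and small subunits were compared by counts and medians. On the 75th percentile scale, 38 of 48 large subunit genes (79.2%) and 24 of 29 small subunit genes (82.8%) were below 0, and the large minus small difference of medians was -0.03. The deposited table gave counts of 28 (58.3%) and 14 (48.3%) and a difference of medians of -0.04. Taken array by array, the large minus small gap in median deviation was 0.033, 0.029 and 0.021 in controls 1 to 3 and -0.067, 0.0068 and -0.0036 in irradiated 1 to 3. These groups did not overlap. In the deposited table the gaps were -0.042, 0.038 and 0.0081 in controls and -0.054, -0.025 and -0.0052 in irradiated arrays, and the groups overlapped. The gap between the subunits was not tested.

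**Figure D2:**
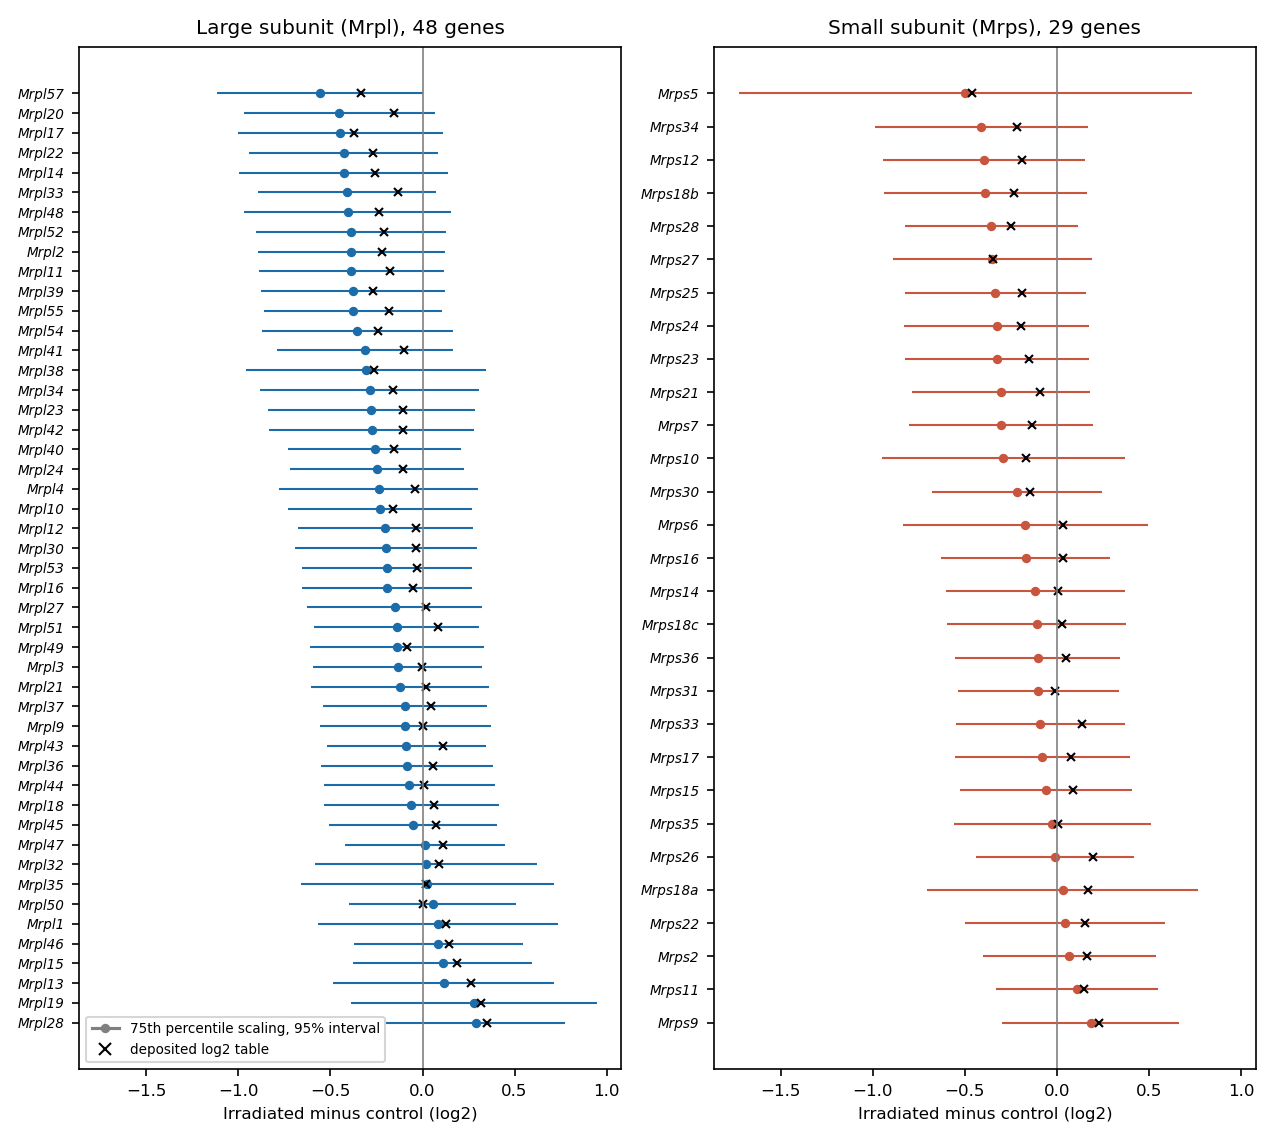
Difference irradiated minus control (log2, horizontal axis) for each of the 48 large and 29 small subunit genes. Dots with bars are the limma estimate and its 95% interval on the 75th percentile scale, and crosses are the difference in the authors' deposited log2 table; every bar includes 0, and most crosses lie to the right of their dots.

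Counting genes whose 3 irradiated values all lay below the 3 control values gave 14 of 77 (18.2%), 9 large and 5 small, against 9.19% of all genes. By the probe with the highest mean signal, no gene had all 3 irradiated values above the controls, where 4.42% of all genes did. Weaker measured probes of Mrpl13, Mrps18a and Mrps22 did have all 3 above. The 14 were Mrpl2, Mrpl16, Mrpl22, Mrpl33, Mrpl39, Mrpl40, Mrpl43, Mrpl55, Mrpl57, Mrps7, Mrps21, Mrps25, Mrps28 and Mrps30. Their differences ranged from -0.56 (Mrpl57) to -0.09 (Mrpl43). That of Mrpl43 was 0.11 in the deposited table.

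Among large subunit genes, the smallest p belonged to Mrpl57, a small component of the large subunit. Its log2 signal was 4.97, 4.95 and 4.79 in controls 1 to 3 and 4.26, 4.05 and 4.73 in irradiated 1 to 3. All irradiated values were below all controls, but irradiated 3 lay just below control 3. The means were 4.90 ± 0.10 (SD, n = 3) and 4.34 ± 0.35 (SD, n = 3), and the difference was -0.56 (SE 0.24; limma adjusted p = 0.539). Its probe lies at chr14:58445650-58445709 on mm9, forward strand. The deposited table gave -0.33.

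The next large subunit genes by p had similar differences on this scale. Mrpl20, a component whose bacterial counterpart is needed early in large subunit assembly, read 5.41, 5.40 and 5.13 in controls and 4.65, 4.80 and 5.13 in irradiated cultures, and irradiated 3 matched control 3. Its difference was -0.45 (SE 0.22). Mrpl33, one of the smallest ribosomal proteins, read 5.33, 5.14 and 4.97 in controls and 4.65, 4.69 and 4.87 in irradiated cultures, without overlap, for a difference of -0.41 (SE 0.21). Mrpl22, whose bacterial counterpart lines the tunnel through which the new protein leaves, read 3.81, 3.52 and 3.35 against 3.13, 2.96 and 3.29, also without overlap, for a difference of -0.43 (SE 0.22). All 3 had an adjusted p of 0.539 in limma. Their differences in the deposited table were smaller, at -0.15 for Mrpl20, -0.13 for Mrpl33 and -0.27 for Mrpl22.

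The large subunit gene with the highest difference was Mrpl28, at 0.29 (SE 0.21). It read 0.75, 0.99 and 0.94 in controls and 1.30, 1.29 and 0.96 in irradiated cultures, so irradiated 3 fell inside the control range. Mrpl19 followed at 0.28 (SE 0.29), where control 1 alone was low, at 0.02 against 0.84 and 0.93 in the other controls and 0.78 to 0.99 in the irradiated cultures. Mrpl13 and Mrpl15 had differences of 0.12 and 0.11. Without control 1, Mrpl28 stayed above 0, at 0.22, but Mrpl19, Mrpl13 and Mrpl15 turned to -0.01, -0.12 and -0.0087. Array quality weights also turned Mrpl13, to -0.19.

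Genes picked for their role in the large subunit had differences below 0 that did not pass the test. Mrpl12 and Mrpl11 belong to the flexible stalk and its base, where translation factors bind, and the protein of Mrpl12 is also known to bind the mitochondrial RNA polymerase. Mrpl12 read 3.82, 3.70 and 3.51 in controls and 3.34, 3.47 and 3.61 in irradiated cultures, which overlap, and differed by -0.20 (SE 0.20). Mrpl11 read 4.48, 4.31 and 4.14 against 3.75, 3.87 and 4.15, with irradiated 3 just above control 3, and differed by -0.39 (SE 0.22). The values of Mrpl3, near the peptidyl transferase centre, Mrpl44, which has a ribonuclease III fold, and Mrpl41, a protein without a bacterial counterpart, were -0.13, -0.07 and -0.31. The deposited table gave -0.03 for Mrpl12, -0.18 for Mrpl11, -0.0046 for Mrpl3, 0.0092 for Mrpl44 and -0.10 for Mrpl41.

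In the small subunit, the lowest p among genes below 0 was that of Mrps28, which read 2.69, 2.50 and 2.31 in controls and 2.11, 2.12 and 2.20 in irradiated cultures. The groups did not overlap, and the difference was -0.36 (SE 0.20; limma adjusted p = 0.555). Mrps12, whose bacterial counterpart helps to read the codon, read 4.75, 4.32 and 4.19 against 3.92, 3.91 and 4.25, and irradiated 3 lay above control 3. Its difference was -0.40 (SE 0.23). Mrps34, needed for a stable small subunit, read 4.57, 4.24 and 3.93 against 4.01, 3.58 and 3.91, with overlap and a difference of -0.41 (SE 0.25). The deposited table gave -0.25 for Mrps28, -0.19 for Mrps12 and -0.21 for Mrps34.

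The highest difference in the small subunit was that of Mrps9, at 0.18 (SE 0.21), from 0.50, 0.87 and 0.82 in controls to 0.90, 1.01 and 0.82 in irradiated cultures. Mrps11 (0.11), Mrps2 (0.07) and Mrps22 (0.04) followed by p. Without control 1, Mrps9 and Mrps11 were at 0.07 and 0.06, and Mrps2 and Mrps22 turned to -0.0078 and -0.15. Mrps22 was at -0.04 with array quality weights. Genes with a role on the head, body or decoding side had differences of -0.30 (Mrps7), -0.17 (Mrps16) and -0.35 (Mrps27, a protein with pentatricopeptide repeats). The deposited table gave -0.14, 0.03 and -0.35 for these 3, so Mrps16 turned. Mrps30 differed by -0.22. The 3 paralogs of bacterial S18, of which structures place Mrps18b and Mrps18c in the small subunit and Mrps18a in the large one, differed by -0.39, -0.11 and 0.03. In that table they stood at -0.23, 0.03 and 0.17, and without control 1 Mrps18a turned to -0.27.

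**Figure D3:**
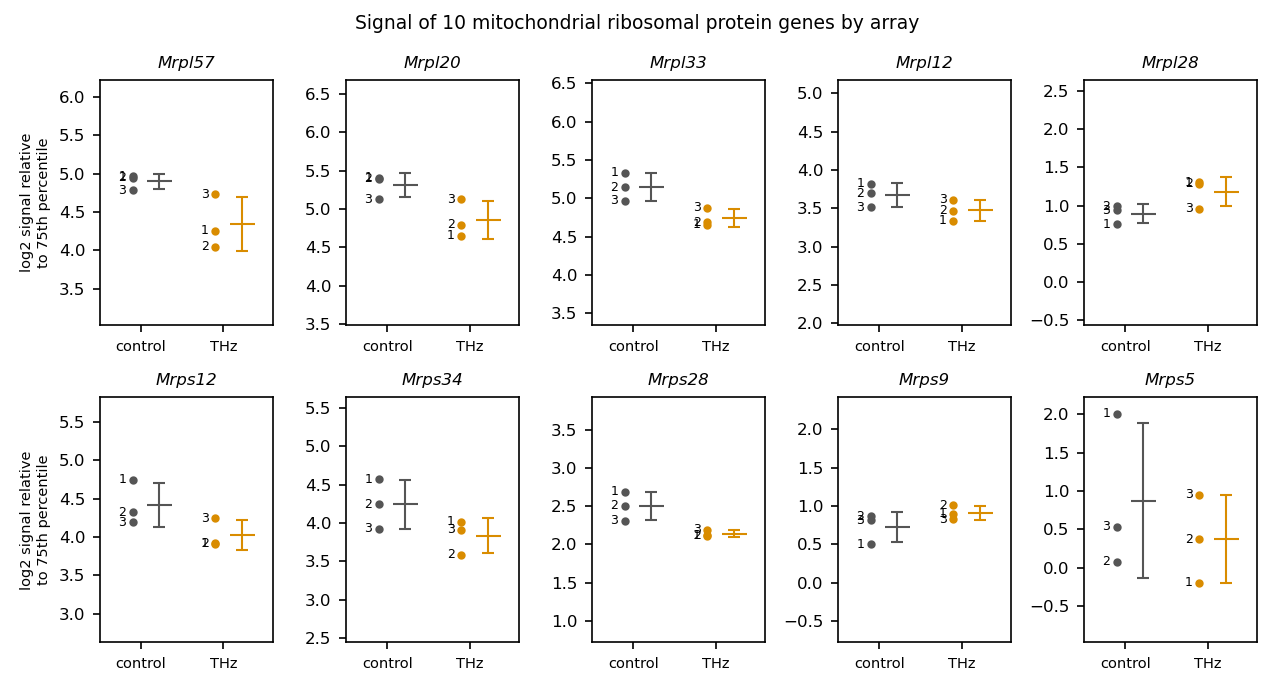
Log2 signal after 75th percentile scaling (vertical axis, each panel spanning the same range) in the 3 control and 3 irradiated arrays for 10 genes. Dots are arrays labelled with their number, and horizontal marks with bars are the mean ± SD; Mrpl57 shows irradiated 1 and 2 at 4.26 and 4.05 and irradiated 3 at 4.73, and Mrps5 shows control 1 alone at 2.01.

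Mrps5 had the widest spread of any small subunit gene, and the spread came mainly from control 1. It read 2.01 there, against 0.07 and 0.53 in the other controls and -0.20, 0.37 and 0.95 in irradiated cultures. A second probe of Mrps5 read -0.04, 0.21 and 0.28 in controls and 0.29, 0.30 and 0.20 in irradiated cultures, with no such high value in control 1. The differences were -0.50 (SE 0.53) for the first probe and 0.11 (SE 0.20) for the second.

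Of the 77 genes, 28 had at least 2 measured probes, and the probes of a gene often differed. In 17 of the 28 (60.7%) the probes had opposite signs, against 54.6% of the 8801 such genes on the array, and the median gap between the lowest and highest difference of a gene was 0.43. Mrpl44 had the widest gap with opposite signs, -0.07 at one probe and 0.99 at the other. The second probe read -3.54, -2.04 and -1.98 in controls and -1.33, -1.21 and -2.07 in irradiated cultures, and irradiated 3 fell among the controls. Mrps15 (-0.06 and 0.79), Mrpl24 (-0.25 and 0.54), Mrpl38 (-0.31 and 0.47) and Mrps18b (-0.39 and 0.38) came next. A weak second probe of Mrpl13 had the smallest p of all 114, with a difference of 0.81 (SE 0.35; limma adjusted p = 0.539), while the brighter probe of that gene differed by 0.12.

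The direction of these disagreements was regular. The probe with the highest mean signal had the lowest difference in 27 of 28 genes (96.4%), in 13 of 13 large and 14 of 15 small, against 59.1% of all genes with several probes. By the deposited table this held in 22 of 28 (78.6%) against 50.8%. A gene's mean signal here describes its probe and not the amount of RNA. Among all genes cut into 5 equal groups by that signal, the brightest group had a median difference of -0.19, with 81.1% below 0. It held 52 of the 77 genes, 50 of them below 0, with a median of -0.26. The next group had a median of -0.06 over all genes and held 24 members, of which 12 were below 0, with a median of -0.0062. The brightest group had deposited-table medians of 0.0081 for all genes and -0.10 for the members in it. The part of probe brightness in the difference of any gene was not tested.

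**Figure D4:**
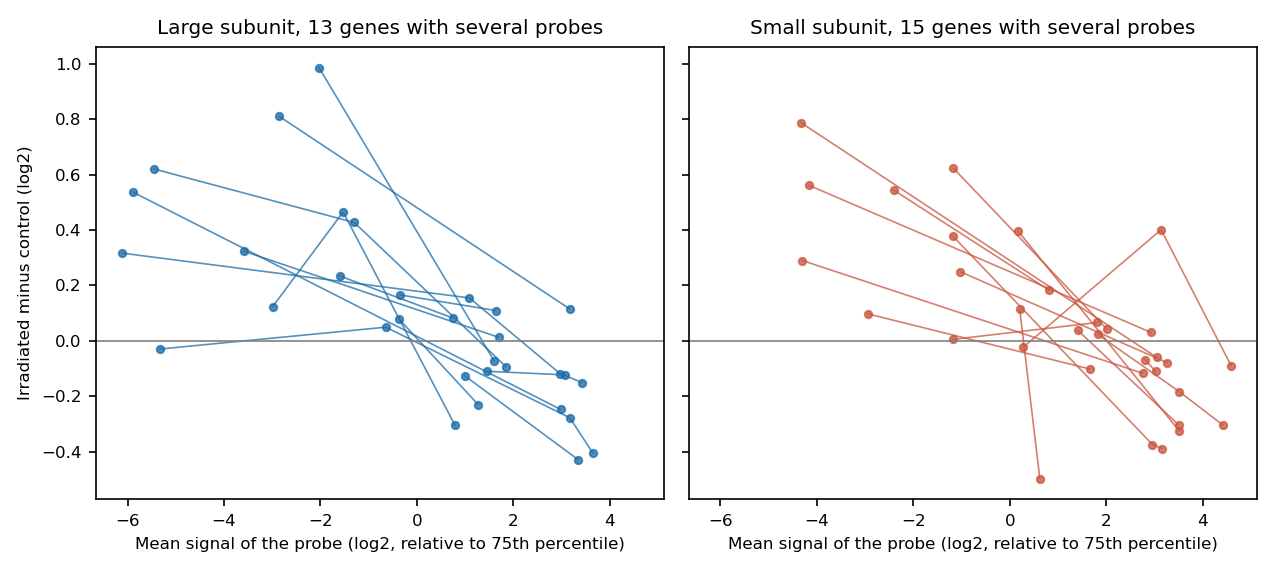
Difference irradiated minus control (log2, vertical axis) against the probe's mean signal over 6 arrays (log2 relative to the 75th percentile, horizontal axis) for the genes with several measured probes, 13 large and 15 small; lines join probes of a gene. In 27 of the 28 genes the probe farthest to the right is the lowest.

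Probes that overlap on the transcript gave like values. Their first 30 bases are shown, 5′ to 3′, and capitals mark the bases shared by both probes of a pair. The probes of Mrps18b (mm9 chr17:36047331-36047390 and chr17:36047326-36047385, reverse strand) share 55 of 60 bases and differed by -0.39 and -0.37. Those of Mrps18c (chr5:101233411-101233470 and chr5:101233418-101233477, forward strand) share 53 bases and differed by -0.07 and -0.11. Those of Mrps21 (chr3:95666557-95666616 and chr3:95666577-95666636, reverse strand) share 40 bases and differed by -0.18 and -0.30. Mrps18b also has another measured probe elsewhere, with a difference of 0.38. The 2 probes of Mrpl21 do not overlap and differed by -0.12 and -0.11. The part of overlap in these values was not tested.
Mrps18b first probe: ggtgtGTCCCTGATTTAAACCTCCTGGCTC
Mrps18b second probe: GTCCCTGATTTAAACCTCCTGGCTCAGCTT
Mrps18c first probe: tcagataCCGAGAATAAATTTTGTATTTGT
Mrps18c second probe: CCGAGAATAAATTTTGTATTTGTGAAGTTC
Mrps21 first probe: TCTGTTACTTTTCTCTATAATAAAAACTCC
Mrps21 second probe: ctttctttatccagccaagtTCTGTTACTT

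Across the arrays, the members were highest on the 2 dimmest arrays, controls 1 and 2, and lowest on the 2 brightest, irradiated 1 and 2; the part of array brightness was not tested. The median deviation of large subunit genes from their own 6-array mean was 0.11, 0.17 and 0.03 in controls 1 to 3 and -0.19, -0.12 and 0.0012 in irradiated 1 to 3. Small subunit genes gave 0.08, 0.14 and 0.0034, then -0.13, -0.13 and 0.0048. Control 3 and irradiated 3, whose 75th percentiles of 1048 and 921 were the closest between the groups, had median deviations near 0 in both subunits. Over all genes the values were 0.08, 0.12 and -0.0059, then -0.12, -0.08 and 0.04. In the deposited table the large subunit read -0.02, 0.10 and -0.03 in controls and -0.05, -0.03 and -0.03 in irradiated arrays. The highest value of a gene was on control 1 in 36 of 77 genes (46.8%; 35.8% of all genes) and on control 2 in 20 (26%; 19.1%). The lowest was on irradiated 1 in 31 (40.3%; 26.7%), on irradiated 2 in 22 (28.6%; 19.4%) and on control 1 in 19 (24.7%; 28.8%). Without control 1, 68 of 77 genes were below 0 and the medians were -0.22 for the large and -0.20 for the small subunit.

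**Figure D5:**
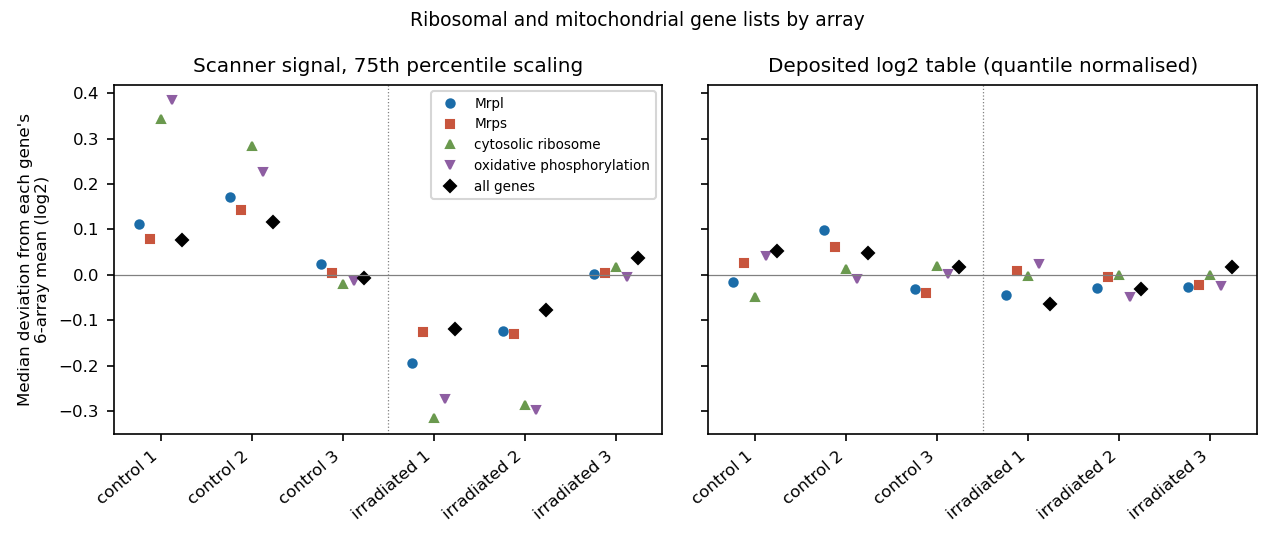
Median deviation from the genes' own 6-array means (log2, vertical axis) on each array for 5 sets: large subunit, small subunit, cytosolic ribosomal proteins, nuclear genes of oxidative phosphorylation and all genes, with the scanner signal scaled to the 75th percentile on the left and the deposited log2 table on the right. On the left, these 5 sets are higher on controls 1 and 2 than on irradiated 1 and 2 and lie near 0 on the arrays numbered 3; on the right, the 5 sets lie within 0.1 of 0.

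Cell type markers also varied between arrays. Microglial markers had median deviations of 1.07, -0.23 and -1.19 in controls 1 to 3 and 1.26, -0.32 and -1.17 in irradiated 1 to 3, so they followed the array number and not the group. Neuronal markers gave 0.02, 0.0087 and 0.16 in controls and -0.27, -0.14 and 0.20 in irradiated arrays, with 6 of 11 genes below 0 in the comparison, and were lowest on irradiated 1 and 2, as the mitochondrial ribosomal protein genes were. In the deposited table, these markers were lowest on control 1, at -0.28, stood at 0.02 on irradiated 2, and had a median difference of 0.05 against -0.23 on the 75th percentile scale. All 5 fibroblast markers were below 0, with a median difference of -0.37 on both scales; their median deviations were 0.61, 0.55 and -0.47 in controls and -0.45, 0.38 and -0.59 in irradiated arrays, which overlap. Of 8 astrocyte markers, 6 were below 0, with a median of -0.15, and 0.01 in the deposited table. The part of these cell types in the values of the members was not tested. Same-numbered arrays deviated together over all genes, with correlations across genes of 0.53, 0.42 and 0.22 for numbers 1 to 3, but over the 77 members these were 0.09, 0.23 and -0.26. Of the pairs with different numbers, control 3 and irradiated 2 correlated at 0.33 over all genes, above the pair numbered 3, and at 0.55 over the members. With the number as a block, 1 member probe was higher at an unadjusted p under 0.05, where 5.18% of all probes were. This was a weak probe of Mrpl9, at 0.62 (limma adjusted p = 0.514).

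Other proteins of the same particle that do not carry an Mrp name also lay mostly below 0 on the 75th percentile scale. Of 7 measured, 6 were below 0, with a median of -0.28, and -0.07 in the deposited table. Aurkaip1, a small subunit protein also known as an Aurora kinase A interactor, read 5.89, 5.64 and 5.46 in controls and 5.16, 5.01 and 5.31 in irradiated cultures, without overlap. Its difference of -0.51 (SE 0.21) was the only one of the 7 with an unadjusted p under 0.05. At that p, 5.29% of all genes were lower. Adjusted over all 26157 genes, its limma adjusted p was 0.569. That of Mrpl57, given above as 0.539 over probes, was also 0.569 over genes. Gadd45gip1, a large subunit protein, differed by -0.62, Ict1, a peptidyl-tRNA hydrolase built into the large subunit, by -0.45, and Dap3, a GTP-binding small subunit protein, by -0.28. The deposited table gave -0.18 for Aurkaip1, -0.49 for Gadd45gip1, -0.29 for Ict1 and -0.07 for Dap3. Ptcd3, a pentatricopeptide repeat protein of the small subunit, was the only one above 0, at 0.09.

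The machinery that assembles and serves the ribosome was split between directions. Of 22 translation factors, 12 were below 0, with a median of -0.05 and, in the deposited table, 0.05. Tufm, the elongation factor that brings aminoacyl-tRNA to the ribosome, differed by -0.51 (SE 0.25) and the initiation factor gene Mtif3 by 0.44 (SE 0.27). Of 26 assembly factors, 15 were below 0, with a median of -0.07, and 0.0029 in the deposited table. Eral1, a chaperone of the small subunit RNA, differed by -0.80 (SE 0.43), but control 1 read 1.82 against 0.51 and 0.29 in the other controls. Wbscr16, a large subunit assembly factor, had all irradiated values above the controls and a difference of 0.44 (SE 0.20). Of 22 genes for mitochondrial aminoacyl-tRNA synthetases and related amidotransferase subunits, 12 were below 0, with a median of -0.14, and -0.03 in the deposited table. None of these genes passed the adjusted threshold in limma or an unadjusted p of 0.05.

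Genes for the expression of mitochondrial DNA had a median of 0.11, with 5 of 17 below 0, and a median of 0.09 in the deposited table. Their median deviation was -0.40 on control 1 but 0.07 and 0.13 on controls 2 and 3. On irradiated 1 to 3 it was -0.05, 0.11 and 0.11. Among these genes, Polrmt, the mitochondrial RNA polymerase, differed by -0.17 and Tfam, which packages mitochondrial DNA, by 0.31. The regulators whose motifs were searched above differed by 0.25 (Nrf1), 0.15 (Gabpa), -0.34 (Gabpb1) and 0.07 (Yy1), and Ppargc1a, a coactivator of mitochondrial genes, by -0.28. None passed the adjusted threshold, and none had an unadjusted p under 0.05. In the nuclear genes of oxidative phosphorylation, which receive the products of this ribosome, 72 of 73 were below 0, with a median of -0.38, and 3 were lower at an unadjusted p under 0.05. In the cytosolic ribosomal proteins, 74 of 76 were below 0, with a median of -0.40, and 1 was lower at that p. Both counts are below the 5.29% over all genes. Both medians were farther from 0 than that of the mitochondrial ribosomal proteins, and in the deposited table they were -0.01 and 0.0022. No gene of either list passed the adjusted threshold.

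Genes that share a divergent promoter region with a member were compared at the end. Mrpl46 and Mrps11, whose starts lie 42 bases apart in the region shown above, differed by 0.09 and 0.11, and both stayed above 0 in the deposited table, at 0.14 and 0.15. Mrps12 and Sars2 differed by -0.40 and -0.21. Mrpl57 differed by -0.56 and its neighbour Ska3, a kinetochore protein gene, by -0.04. Mrpl32 and Psma2, which encodes a proteasome subunit, differed by 0.02 and -0.28, and by 0.09 and 0.06 in the deposited table. Mrpl49 and Fau, whose product is fused to a protein of the cytosolic ribosome, differed by -0.14 and -0.58, and there by -0.08 and -0.11. Among these named pairs, only Mrpl32 and Psma2 thus had opposite signs by the differences given first. In the deposited table, Mrps12 and Sars2 stood at -0.19 and -0.26, and Mrpl57 and Ska3 at -0.33 and -0.16. Partners in every named pair therefore shared a sign there. Divergent pairs not named here included some with the same sign and some with opposite signs. Whether partners share a sign more often than other genes was not tested. None of the genes measured in the named pairs had an unadjusted p under 0.05.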

How the data were processed

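The members and gene lists were chosen with earlier results of these data known. The authors deposited spot intensity values that, per the submitters' processing notes, were extracted with Agilent Feature Extraction 10.7.1.1. The processed signal used here is background-subtracted and detrended within the array, per the file headers, and is not normalised between arrays. They also deposited a table of log2 values; each of its 6 columns had a median of 5.90, and it matched quantile normalisation of the scanner signal, so direction and scale are known from the values, while its software was not given in the sources used here.

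The signal was taken to log2, outlier spots were left out (10 probes), replicate spots were averaged by probe, and the 75th percentile of all non-control spots on the array was subtracted. Probes well above background on at least 3 of 6 arrays were kept. Irradiated minus control was fitted over all 40552 kept probes with limma 3.58.1 in R 4.3.3 (lmFit, eBayes) without covariates, with Benjamini-Hochberg adjustment over these probes. For genes of the other lists, the adjustment was over all 26157 genes, each by its probe with the highest mean signal. The script was tested on simulated data with 200 changed probes. The planted differences were larger than any of the members, and the simulated arrays did not differ in brightness. That test therefore does not bear on differences of the size reported here. Promoters were searched with Python 3.11.15. Probe positions are those of mm9, per the file headers; no exon annotation of that build was used. The number of arrays limits the precision.

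Genes named are any past the adjusted threshold, the 4 higher and 4 lower in each subunit with the smallest p, 15 picked by role, the 5 with the widest disagreement between probes and the gene with the largest SD in each subunit, which gave 31. Members in divergent pairs, second probes, genes whose groups did not overlap, and genes of the other lists were named beyond that rule after their values were seen. Same-numbered arrays correlated above 0.1 in their deviations for all 3 numbers, so the numbers were taken to pair the samples, and a fit with the number as a block was run as an alternative. Others were quantile normalisation, the deposited table, normexp background (offset 50), other filters, the mean of a gene's probes, array quality weights and leaving out arrays.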

Additional observations from a re-analysis of the deposited data

How the results depend on the processing

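Of the 16 alternatives, the mean of a gene's probes gives no new count of probes. In the rest, the count of member probes past an adjusted p of 0.05 was 0 except with array quality weights. There it was 1 of 114 member probes (Mrpl57, limma adjusted p = 0.0453), where 3850 of all 40552 probes passed. These weights gave control 2 and irradiated 2 values of 3.71 and 4.81 and the other arrays 0.21 to 0.71, so that fit rests largely on 2 arrays. The count at an unadjusted p under 0.05, 0 in the reported fit, was 1 with normexp background (Mrpl57), 3 among probes well above background on all 6 arrays (Mrpl57 lower, weak probes of Mrpl13 and Mrps18a higher), 1 with the replicate block and 1 with the block and quantile normalisation (Mrpl9 in both), and 40 with array quality weights (6 higher, 34 lower, where 32.6% of all probes were called). Of all probes, 14.6% were called with normexp background and 8.74% among those well above background on all 6 arrays. With the block the share was 8.64%, and 8.86% with the block and quantile normalisation. Leaving out 1 array at a time gave from 0 to 6 probes: 6 without control 2, 4 without control 3 and 6 without irradiated 3. In these 3 fits, 10.3%, 15.2% and 9.13% of all probes were called. The large subunit median moved to -0.038 with quantile normalisation, in the deposited table, and with the block and quantile normalisation. That of the small subunit moved to 0.0030, 0.0033 and 0.0030 in the same order to -0.29 with array quality weights and, within the spread between arrays, to -0.10 with the mean of a gene's probes. The large minus small difference was 0.039 with array quality weights and lay between -0.092 (without irradiated 3) and 0.015 (without irradiated 1) when 1 array was left out. Members below 0 numbered 60 to 68 of 77, except 43 with quantile normalisation, with or without the block, 42 in the deposited table and 52 with the mean of a gene's probes. The block changed no other call. Of 31 named genes, 18 kept their sign under all 16 alternatives, among them Mrpl57 (-0.78 to -0.33), Mrpl28 (0.16 to 0.40) and Mrps28 (-0.45 to -0.25). The cause of these movements was not tested.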
